A study of Danio rerio with 4 samples.

Results

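Keratins are the intermediate filament proteins of epithelial cells, built from paired type I and type II chains. Desmosomes anchor these filaments at cell contacts through desmosomal cadherins (desmogleins and desmocollins), armadillo proteins (plakoglobin and plakophilins) and plakins such as desmoplakin, and claudins seal or select what passes between neighbouring cells at tight junctions. In the zebrafish embryo the skin has an outer periderm and a basal layer, and many keratin and claudin genes are active in one or both, while others serve the gut, kidney, nerve sheath or notochord.

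The genes described are those whose symbol begins with krt or cldn, together with the keratin genes cyt1 and cyt1l and named desmosome, plakin and epithelial adhesion genes. They come to 67 of the 32379 gene rows in the count files. Of these, 23 carry a keratin-type name, 31 a claudin name, 12 belong to desmosomes or the plakin family, and 1 is epcam, an epithelial cell adhesion molecule. For 51 rows the zebrafish symbol matched, 1 (dsg2.1) matched through its older symbol dsg2, and 15 bear human-style capitals that paralogs can share, so DSP, JUP and CLDN11 each stand for a pair of rows told apart here by identifier. The prefix also takes in KRTCAP2, a subunit of the oligosaccharyltransferase complex and no keratin, KRT222, a keratin-like gene, and CLDND1, a claudin-domain gene. The 2 rows named CLDN5 were left out because the selection excludes one of the paralogs and the symbol table does not tell them apart, and ppl, evplb and cdh1 were not analysed here.

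RNA came from whole AB-strain zebrafish embryos given 3 ng of a morpholino at the one-cell stage and collected at 48 hours post fertilization. The 2 groups are embryos given a morpholino against srsf5a, a gene for a serine/arginine-rich splicing factor, and embryos given a control morpholino, with 2 libraries each. All embryos were injected and then sorted for a fluorescent dextran tracer, so the comparison has no uninjected embryos, and 80 embryos are stated per condition and not per library. Morpholinos are antisense oligomers that block splicing or translation of their target, and the series title concerns RNAs that they hit inadvertently. The p-values measure only the spread between these libraries, which may be technical.

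Reads assigned to genes ranged from 15139525 to 36240893 per library, with the shallowest and the deepest library both in the control group. Between 29.0% and 34.2% of listed reads had several alignments and were not assigned, so the values of closely related gene copies are uncertain. Over all 19917 genes tested, 395 (1.98%) passed an edgeR adjusted p of 0.05. The targeted gene srsf5a had 335 and 368 CPM, counts scaled to an equal library total, in srsf5a-morpholino embryos, against 335 and 286 CPM in control embryos, and did not pass (log2 fold change 0.18 ± 0.11 SE). A total count need not fall when splicing is blocked, so this value does not check the labels.

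Of the 67 genes, 60 had enough reads to be tested. The 7 others (CLDN10, cldn10d, cldn10e, cldn33b, cldnd, krt93 and krt95) had at most 12 counts and 0.534 CPM in any library, and cldn10e and krt95 had 0 in all 4, which allows up to 0.0828 to 0.198 CPM depending on depth. Among the 60, 2 keratin genes rose with the srsf5a morpholino and none fell at an edgeR adjusted p of 0.05. That is 3.33% of them higher, beside 1.22% of all tested genes higher and 0.768% lower. At an unadjusted p under 0.05, 15 of the 60 were higher and 5 lower, beside 10.5% and 10.1% of all tested genes. The median log2 fold change was 0.18 in these genes and 0.00027 over all genes tested, and 36 lay above 0 and 24 below. The number of calls hung on single libraries, for these genes and over all genes alike. Without srsf5a-morpholino replicate 1, 8 of 61 genes were higher and 1 lower, beside 633 higher and 523 lower of all 20323 tested. Without srsf5a-morpholino replicate 2, 7 of 61 were higher and 0 lower, beside 702 and 708 of 20453. Without control replicate 1, 1 of 60 was higher and 0 lower, beside 133 and 42 of 20522, and without control replicate 2, 0 of 61 passed, beside 31 and 2 of 20461.

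**Figure D1:**
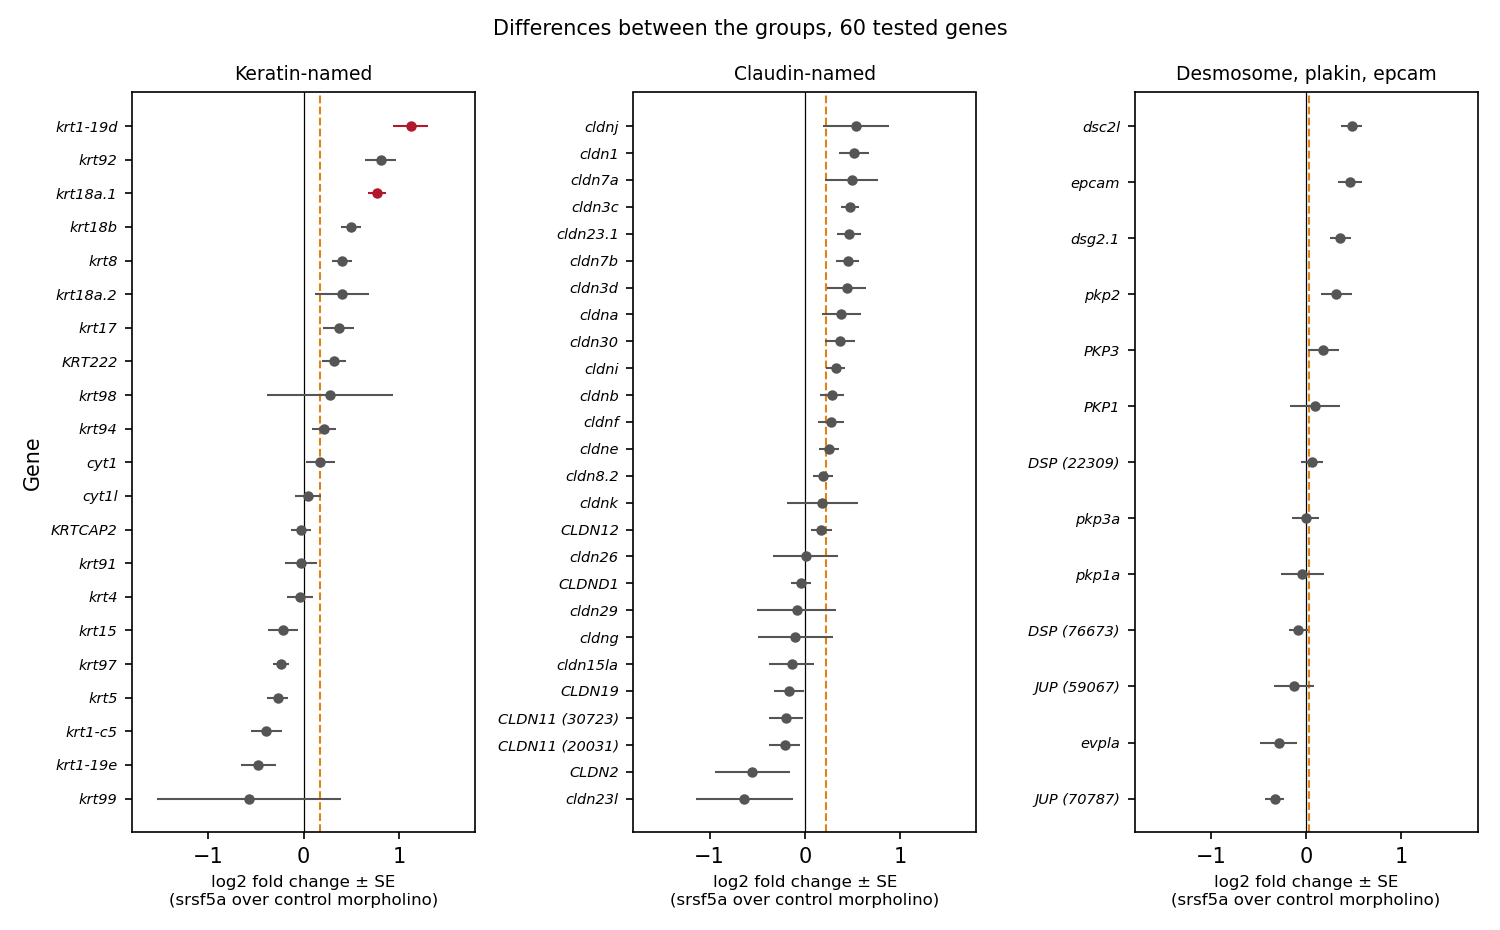
log2 fold change (srsf5a over control morpholino, horizontal axis) of each of the 60 tested genes, with its standard error as a bar, in 3 panels by role. Red points are the 2 genes that passed the test, krt1-19d and krt18a.1, the dashed line is the median of the panel's keratin, claudin or desmosome and plakin genes (0.18, 0.22 and 0.03), and digits in brackets are the end of the identifier where 2 rows share a symbol.

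Both keratin genes that rose were above the controls in each library. krt18a.1, a type I keratin gene related to mammalian keratin 18 of simple epithelia, had 578 and 541 CPM in srsf5a-morpholino embryos, against 332 and 323 CPM in control embryos. The 2 libraries of each group lay close together and the groups were well apart, a 1.71-fold difference (log2 0.77 ± 0.09 SE, edgeR adjusted p = 0.0189). krt1-19d, another type I keratin gene, had 32.4 and 41.3 CPM in srsf5a-morpholino embryos, against 19.9 and 14.4 CPM in control embryos. It was 2.18-fold higher (log2 1.12 ± 0.19, edgeR adjusted p = 0.0391) and the one tested keratin-type gene to differ at least 2-fold. The call of krt18a.1 ended without either control (0.79 without control replicate 1, 0.75 without control replicate 2), and that of krt1-19d ended without control replicate 2 (0.89). In RNA from whole embryos, more or fewer cells of a type and more or less RNA per cell cannot be told apart. This holds for every difference given here.

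The other genes for the keratin 8 and 18 family were also higher in each srsf5a-morpholino library than in each control library, although none of them passed. The choice of this family followed a look at its values. krt8, whose type II product pairs with keratin 18 in mammalian simple epithelia, had 1165 and 1098 CPM in srsf5a-morpholino embryos, against 907 and 802 CPM in control embryos (log2 0.41 ± 0.11, edgeR adjusted p = 0.1). krt18b had 153 and 137 CPM in srsf5a-morpholino embryos, against 108 and 97.7 CPM in control embryos (log2 0.50 ± 0.10, edgeR adjusted p = 0.0629). krt18a.2, which lies beside krt18a.1 in the genome, had 2.04 and 1.74 CPM in srsf5a-morpholino embryos and 1.40 and 1.45 CPM in control embryos (log2 0.40 ± 0.28). Summed, krt8, krt18a.1, krt18a.2 and krt18b came to 1899 and 1778 CPM in srsf5a-morpholino embryos, against 1348 and 1224 CPM in control embryos, a ratio of group means of 1.43. All 4 lay above both controls, so the direction of this sum was set by the choice of family. The remaining 17 keratin genes together overlapped between groups, at 27899 and 29757 CPM in srsf5a-morpholino embryos, against 32044 and 27840 CPM in control embryos. Their ratio of group means was 0.963. Most of this sum was krt4, at 19994 and 21726 CPM in srsf5a-morpholino embryos and 23152 and 19643 CPM in control embryos. The sum therefore says little about the others. Among the 17, krt92, krt17, krt94 and the other keratin gene that passed also had both srsf5a-morpholino libraries above both controls. Another 4 had both below, while krt93 and krt95 were not tested. Of all genes tested, 26.1% had both above and 26.3% both below, shares to set beside both sets of keratin genes. Whether the keratin 8 and 18 family differs from the other keratin genes was not tested.

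**Figure D2:**
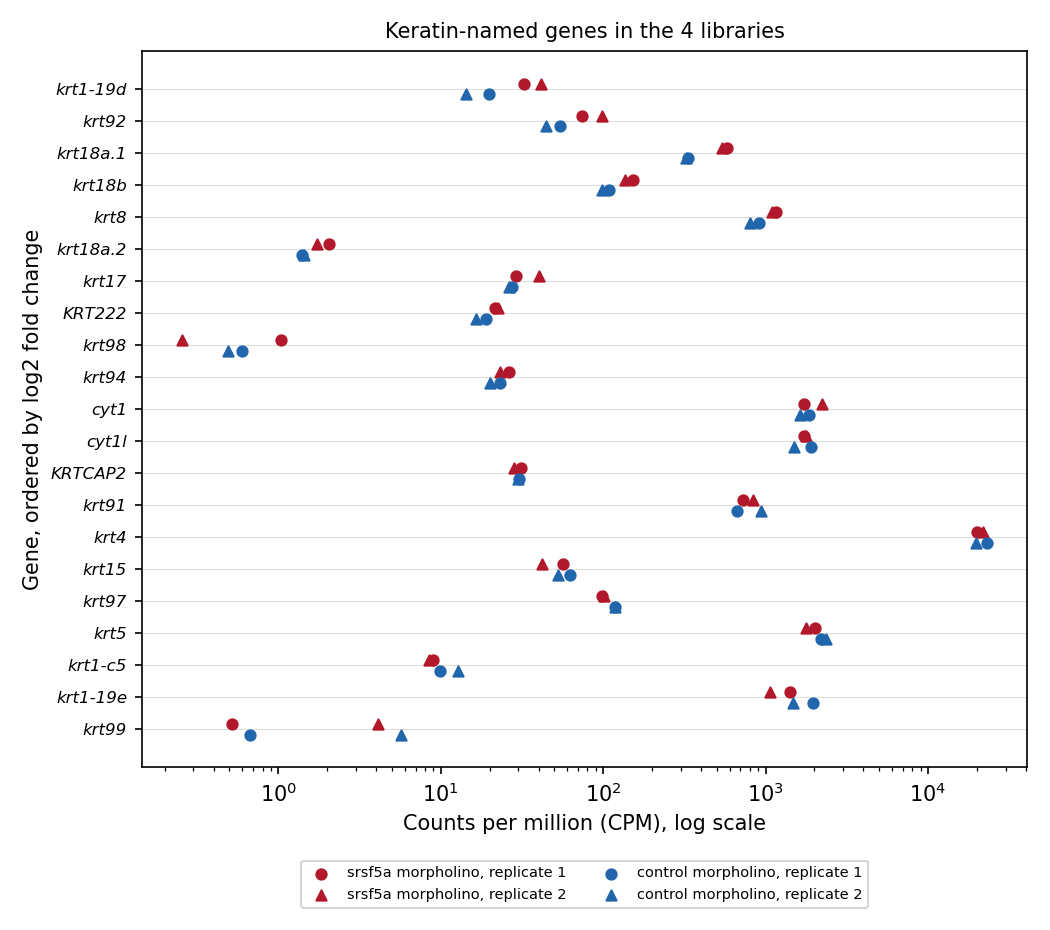
CPM (horizontal log axis) of the 21 tested genes with a keratin-type name in each library, with srsf5a-morpholino libraries in red above control libraries in blue, circles for replicate 1 and triangles for replicate 2. Genes run from the highest log2 fold change at the top to the lowest at the bottom: krt1-19d, krt92, krt18a.1, krt18b and krt8 show red points to the right of blue ones, while krt4 overlaps.

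The 4 keratin genes with the highest CPM, a scale that is not per length, were krt4, krt5, cyt1 and cyt1l, and they showed no shared direction. krt4, a type II keratin gene of the embryonic skin surface, took 2.03% and 2.14% of gene counts in srsf5a-morpholino embryos and 2.29% and 1.99% in control embryos. Its level was 19994 and 21726 CPM in srsf5a-morpholino embryos, against 23152 and 19643 CPM in control embryos, and the groups overlapped (log2 -0.04 ± 0.14, turning to 0.02 without srsf5a-morpholino replicate 1 and 0.08 without control replicate 1). cyt1, a type I keratin gene, had 1712 and 2228 CPM in srsf5a-morpholino embryos, against 1854 and 1634 CPM in control embryos (log2 0.18 ± 0.15, and -0.03 without srsf5a-morpholino replicate 2). The groups overlapped for cyt1. Its near relative cyt1l had 1711 and 1776 CPM in srsf5a-morpholino embryos, against 1893 and 1488 CPM in control embryos (log2 0.04 ± 0.13, and -0.12 without control replicate 2). Across all 23 keratin-named genes the summed level was 29850 and 31586 CPM in srsf5a-morpholino embryos, against 33442 and 29111 CPM in control embryos. One control library thus exceeded, and the other fell short of, both srsf5a-morpholino libraries.

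At the other end of the keratin-named genes, several had lower values in both srsf5a-morpholino libraries than in either control. None passed the edgeR test with all 4 libraries and no replicate block. krt5, a type II keratin gene of the epidermis, had 2006 and 1776 CPM in srsf5a-morpholino embryos, against 2199 and 2369 CPM in control embryos (log2 -0.27 ± 0.11, edgeR adjusted p = 0.235). Its product pairs with type I keratins in the basal epidermis of mammals. krt1-19e, a type I keratin gene, had 1420 and 1057 CPM in srsf5a-morpholino embryos, against 1965 and 1482 CPM in control embryos (log2 -0.48 ± 0.18, edgeR adjusted p = 0.207). Replicate 1 was the higher library of krt1-19e in both groups. A fit with the replicate number as a block called krt1-19e lower (log2 -0.48, edgeR adjusted p = 0.0349). The log2 fold change of krt1-19e was -0.70 without srsf5a-morpholino replicate 1 and -0.26 without control replicate 1. Its adjusted p ranged over 0.0173 to 0.631 across the edgeR and DESeq2 alternatives. krt97 had 98.5 and 102 CPM in srsf5a-morpholino embryos, against 119 and 117 CPM in control embryos (log2 -0.24 ± 0.09, edgeR adjusted p = 0.194). krt1-c5 had 8.98 and 8.41 CPM in srsf5a-morpholino embryos, against 9.95 and 12.7 CPM in control embryos (log2 -0.39 ± 0.16, edgeR adjusted p = 0.237).

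krt92, the gene with the second-highest keratin fold change, had 74.0 and 98.7 CPM in srsf5a-morpholino embryos, against 54.4 and 44.4 CPM in control embryos. Its groups did not overlap and its difference of 1.75-fold (log2 0.81 ± 0.16, edgeR adjusted p = 0.0557) lay just outside the threshold. krt99, named here after a look at its values, split by replicate number and not by group, with 0.520 and 4.12 CPM in srsf5a-morpholino embryos and 0.668 and 5.73 CPM in control embryos. Of the other tested keratin-named genes, krt17, KRT222 and krt94 lay above the controls in both srsf5a-morpholino libraries, at log2 fold changes of 0.37, 0.32 and 0.21, and krt98, KRTCAP2, krt91 and krt15 overlapped, at 0.27, -0.03, -0.03 and -0.22. In all, 9 of 21 tested keratin-named genes had both srsf5a-morpholino libraries above both controls and 4 had both below, 42.9% and 19.0%, beside 26.1% and 26.3% of all genes tested.

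Neighbouring keratin genes gave values on both sides of 0. In the RefSeq gene order of the GRCz12tu assembly, krt1-19d, krt1-19e, krt92, cyt1l, cyt1, krt17 and krt91 follow each other with no other protein-coding gene between them, and their log2 fold changes spanned -0.48 for krt1-19e to 1.12 for krt1-19d, adjacent genes. The row's summed level overlapped between groups, at 5707 and 6076 CPM in srsf5a-morpholino embryos and 6477 and 5619.6 CPM in control embryos. The row of krt93, krt94, krt98, krt15 and krt99 likewise overlapped, at 84.5 and 69.9 CPM in srsf5a-morpholino embryos and 87.0 and 79.0 CPM in control embryos. Because reads with several alignments were set aside, the split of counts among such related neighbours is uncertain.

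Desmosomal cadherin genes were higher in both srsf5a-morpholino libraries than in both controls, without passing the test. Of the 12 desmosome and plakin genes, 3 had both srsf5a-morpholino libraries above both controls and 2 had both below. Over all genes tested, 26.1% had both above and 26.3% both below, so neither share was larger among desmosome and plakin genes. dsc2l, a desmocollin gene, had 66.0 and 67.4 CPM in srsf5a-morpholino embryos, against 52.2 and 43.9 CPM in control embryos (1.39-fold, log2 0.48 ± 0.11, edgeR adjusted p = 0.0792). dsg2.1, a desmoglein gene that neighbours dsc2l in the RefSeq order, had 102 and 96.7 CPM in srsf5a-morpholino embryos, against 83.2 and 72.1 CPM in control embryos (1.28-fold, log2 0.36 ± 0.11, edgeR adjusted p = 0.122). Summed, the pair came to 168 and 164 CPM in srsf5a-morpholino embryos, against 135 and 116 CPM in control embryos.

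The armadillo proteins that link these cadherins to the filaments gave mixed values. One JUP row (ENSDARG00000070787), a plakoglobin gene, had 188 and 187 CPM in srsf5a-morpholino embryos, against 253 and 219 CPM in control embryos (log2 -0.33 ± 0.10, edgeR adjusted p = 0.138). This is the lowest log2 fold change among the 12 desmosome and plakin genes, and both srsf5a-morpholino libraries lay below both controls. The other JUP row (ENSDARG00000059067) had 3.38 and 3.23 CPM in srsf5a-morpholino embryos, against 3.67 and 3.54 CPM in control embryos (log2 -0.12 ± 0.21). Of the plakophilin genes, which strengthen the desmosomal plaque, pkp2 was above both controls, with 8.98 and 11.04 CPM in srsf5a-morpholino embryos, against 8.08 and 7.99 CPM in control embryos (log2 0.32 ± 0.16, edgeR adjusted p = 0.319). The other plakophilin genes overlapped between groups. pkp3a had 113 and 136 CPM in srsf5a-morpholino embryos, against 138 and 112 CPM in control embryos (log2 -0.0055 ± 0.14, and 0.15 without control replicate 1). PKP3 had 14.6 and 15.8 CPM in srsf5a-morpholino embryos, against 15.5 and 11.6 CPM in control embryos (log2 0.18 ± 0.16, and -0.03 without control replicate 2). pkp1a had 3.86 and 3.61 CPM in srsf5a-morpholino embryos, against 4.41 and 3.38 CPM in control embryos (log2 -0.04 ± 0.23, and 0.14 without control replicate 1). PKP1 showed the widest spread of these (log2 0.09 ± 0.26, and -0.32 without control replicate 2). srsf5a-morpholino libraries each had 29.6 CPM, while its controls had 36.9 and 19.5 CPM.

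Plakin genes, whose products tie keratin filaments to the plaque, overlapped between the groups. Desmoplakin was represented by 2 DSP rows. The first (ENSDARG00000022309) had 212 and 209 CPM in srsf5a-morpholino embryos, against 223 and 181 CPM in control embryos (log2 0.06 ± 0.12, and -0.08 without control replicate 2). The second (ENSDARG00000076673) had 91.5 and 103 CPM in srsf5a-morpholino embryos, against 104 and 102 CPM in control embryos (log2 -0.08 ± 0.10, and 0.0051 without srsf5a-morpholino replicate 1). evpla, which encodes envoplakin, a plakin of the cornified envelope in mammals, had 121 and 114 CPM in srsf5a-morpholino embryos, against 176 and 111 CPM in control embryos. Its log2 fold change of -0.29 ± 0.20 rested on control replicate 1 and was 0.07 without it. Over the 12 desmosome and plakin genes the median log2 fold change was 0.03, with 6 above 0 and 6 below, and 6 were within 1.1-fold of no difference.

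**Figure D3:**
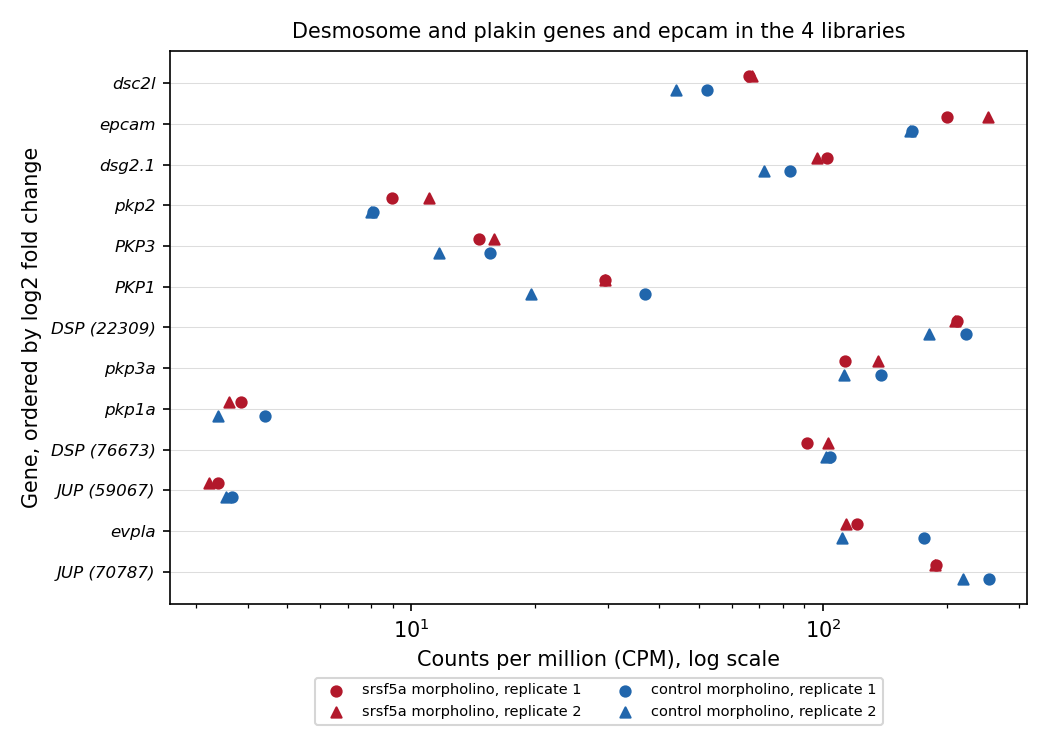
CPM (horizontal log axis) of the 12 desmosome and plakin genes and of epcam in each library, srsf5a morpholino in red above control morpholino in blue, circles for replicate 1 and triangles for replicate 2. dsc2l, epcam, dsg2.1 and pkp2 have both red points to the right of both blue ones, and both JUP rows have them to the left.

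epcam, whose product holds epithelial cells together and has been linked to skin integrity in zebrafish, had 199.9 and 252 CPM in srsf5a-morpholino embryos, against 165 and 163 CPM in control embryos. The groups did not overlap, at a 1.38-fold difference (log2 0.46 ± 0.13), and the gene did not pass (edgeR adjusted p = 0.102).

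Claudin genes differed by small amounts. None of 26 tested passed at an edgeR adjusted p of 0.05 in either direction, while 6 (23.1%) were higher and 0 lower at an unadjusted p under 0.05, beside 10.5% and 10.1% of all tested genes. DESeq2 gave an adjusted p to 22 of them and called 2 higher and 0 lower, beside 2.84% and 2.65% of all genes to which it gave one. Both srsf5a-morpholino libraries exceeded both controls for 13 of the 26 (50.0%) and fell below both for 1 (3.85%), beside 26.1% and 26.3% of all genes tested. These shares were 46.4% and 8.93% in the 56 other epithelial genes tested, described below. In the 16 tight junction partners among them they were 56.25% and 6.25%, so the skew was not particular to claudin genes. The median log2 fold change was 0.22, with 17 above 0 and 9 below, and the range was -0.63 for cldn23l to 0.54 for cldnj, both of which had at most 1.21 CPM in any library. Summed over all 31 claudin-named genes, the level was 868 and 807 CPM in srsf5a-morpholino embryos, against 714 and 662 CPM in control embryos, a ratio of group means of 1.22 with no overlap.

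The 4 claudin genes with the highest CPM each lay above both controls in both srsf5a-morpholino libraries, and none passed the test. cldni had 293 and 262 CPM in srsf5a-morpholino embryos, against 228 and 215 CPM in control embryos (log2 0.32 ± 0.10, edgeR adjusted p = 0.134). cldn7b had 107 and 105 CPM in srsf5a-morpholino embryos, against 85.7 and 69.7 CPM in control embryos (log2 0.45 ± 0.12, edgeR adjusted p = 0.0981). In both genes the lower srsf5a-morpholino library stood clear of the higher control. cldne had 86.7 and 80.2 CPM in srsf5a-morpholino embryos, against 74.1 and 66.2 CPM in control embryos (log2 0.25 ± 0.10, edgeR adjusted p = 0.225). In CLDN12 the gap was narrow, with 70.8 and 60.8 CPM in srsf5a-morpholino embryos, against 60.2 and 56.7 CPM in control embryos (log2 0.17 ± 0.11, edgeR adjusted p = 0.423).

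**Figure D4:**
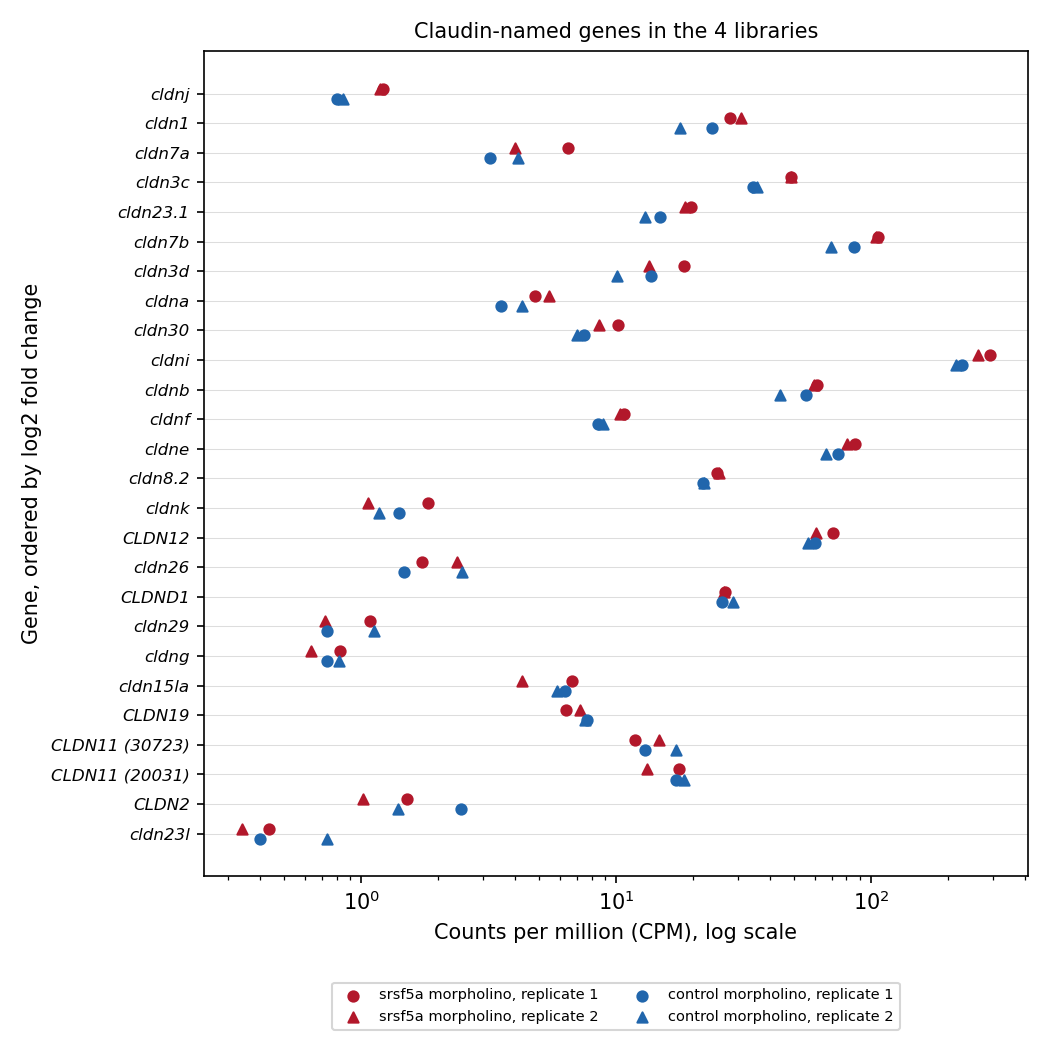
CPM (horizontal log axis) of the 26 tested claudin-named genes in each library, srsf5a morpholino in red above control morpholino in blue, circles for replicate 1 and triangles for replicate 2. In 13 genes, cldni, cldn7b, cldne and cldn3c among them, both red points lie right of both blue ones, and CLDN19 alone has both to the left.

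The largest claudin differences among genes of at least 5 CPM were 1.43-fold or less. cldn3c came closest to the threshold, with 48.5 and 48.6 CPM in srsf5a-morpholino embryos, against 34.3 and 35.7 CPM in control embryos (log2 0.47 ± 0.10, edgeR adjusted p = 0.0564). The libraries within each group were nearly level, and the neighbouring gene cldn3d, with 18.4 and 13.5 CPM in srsf5a-morpholino embryos and 13.7 and 10.1 CPM in control embryos, overlapped between groups. cldn1, whose mammalian counterpart is needed for the skin's water barrier, had 28.1 and 30.9 CPM in srsf5a-morpholino embryos, against 23.8 and 17.9 CPM in control embryos (log2 0.52 ± 0.16, edgeR adjusted p = 0.129). cldn23.1 had 19.6 and 18.6 CPM in srsf5a-morpholino embryos, against 14.8 and 13.0 CPM in control embryos (log2 0.46 ± 0.13, edgeR adjusted p = 0.105). In cldn1 the control libraries were the less even pair. cldn7a overlapped between groups, with 6.46 and 3.99 CPM in srsf5a-morpholino embryos and 3.21 and 4.12 CPM in control embryos. The neighbouring genes cldne, cldnf and cldna were each above the controls, and together came to 102 and 96.0 CPM in srsf5a-morpholino embryos, against 86.1 and 79.4 CPM in control embryos. Of the remaining tested claudin-named genes, cldn30, cldnb and cldn8.2 also lay above the controls in both libraries, at log2 fold changes of 0.37, 0.28 and 0.19. cldnk, cldn26, CLDND1, cldn29, cldng and CLDN2 overlapped between groups, at 0.18, 0.01, -0.04, -0.09, -0.10 and -0.55.

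Claudin genes with negative values include some whose mammalian counterparts serve tissues other than skin. The first CLDN11 row (ENSDARG00000020031), named for a claudin of mammalian myelin, had 17.6 and 13.2 CPM in srsf5a-morpholino embryos, against 17.2 and 18.4 CPM in control embryos (log2 -0.21 ± 0.16). The second (ENSDARG00000030723) had 11.8 and 14.7 CPM in srsf5a-morpholino embryos, against 13.0 and 17.1 CPM in control embryos (log2 -0.20 ± 0.18, and 0.03 without control replicate 2). In neither row did the groups separate. CLDN19, named for a claudin of mammalian kidney and nerve sheath, had 6.33 and 7.22 CPM in srsf5a-morpholino embryos, against 7.68 and 7.55 CPM in control embryos (log2 -0.17 ± 0.16). cldn15la had 6.68 and 4.29 CPM in srsf5a-morpholino embryos, against 6.28 and 5.83 CPM in control embryos (log2 -0.14 ± 0.24, and 0.14 without srsf5a-morpholino replicate 2). cldn15la likewise overlapped between groups, and whether CLDN11, CLDN19 and cldn15la differ from the claudin genes above the controls was not tested.

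**Figure D5:**
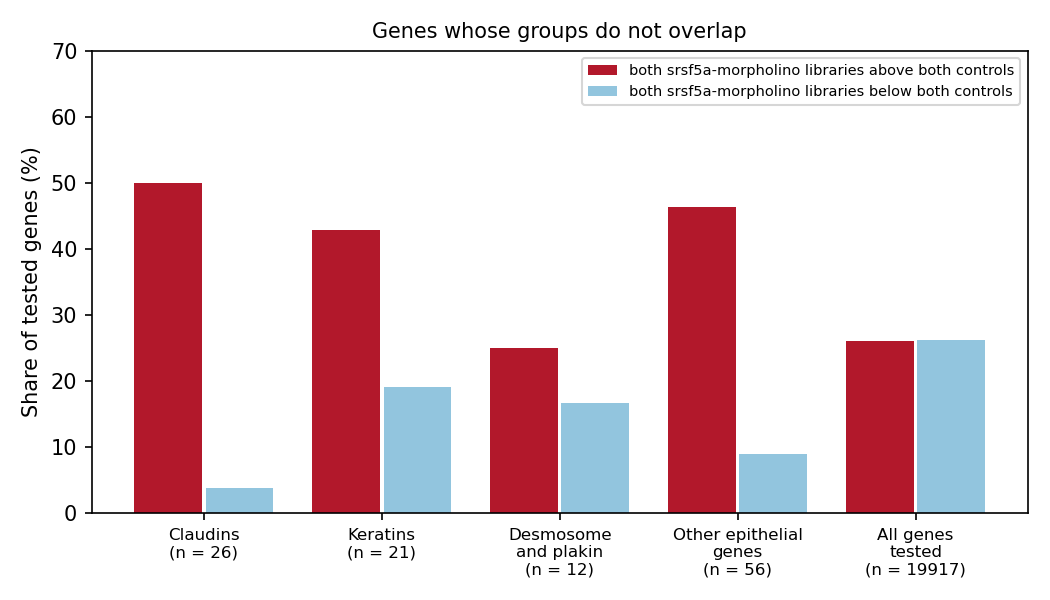
Share of tested genes (%) with both srsf5a-morpholino libraries above both controls (red) or below both (blue), for claudin-named, keratin-named, desmosome and plakin, other epithelial and all tested genes. Claudin genes show 50.0% above and 3.85% below, other epithelial genes 46.4% and 8.93%, and all tested genes 26.1% and 26.3%.

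Other epithelial genes outside the selection were read from a list of junction, basement membrane and epidermis genes, of which 56 were tested. In this list 1 rose and 1 fell (1.79% each) by edgeR, beside 1.22% higher and 0.768% lower of all tested genes. The median log2 fold change was 0.12, and 39 lay above 0 (69.6%, beside 50.1% of all tested genes) and 17 below. col17a1a, a transmembrane collagen gene of the hemidesmosome, fell, with 224 and 204 CPM in srsf5a-morpholino embryos, against 318 and 325 CPM in control embryos (log2 -0.59 ± 0.10, edgeR adjusted p = 0.0365). lamb3, which encodes a chain of the basement membrane protein laminin 332, rose at a low level, with 3.21 and 1.40 CPM in srsf5a-morpholino embryos, against 0.334 and 0.300 CPM in control embryos (log2 2.86 ± 0.52, edgeR adjusted p = 0.047). Both calls ended without either control, at log2 -0.61 and 2.92 without control replicate 1 and at -0.57 and 2.76 without control replicate 2, and that of lamb3 also without srsf5a-morpholino replicate 1 (2.15).

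By group, the list's hemidesmosome and basement membrane genes had both edgeR calls among 12 (median log2 fold change 0.15). Its tight junction partners had 0 edgeR calls among 16 (median 0.16), with 3 higher and 1 lower at an unadjusted p under 0.05, and its adherens junction partners had 0 among 6 (0.0067), with 0 at an unadjusted p under 0.05. DESeq2 also made 0 calls in these 2 groups, beside 2.84% higher and 2.65% lower of all genes to which it gave an adjusted p. Its epidermal transcription factors had 0 edgeR calls among 12 (0.03), with 2 higher and 1 lower at an unadjusted p under 0.05, and 1 lower with DESeq2, TFAP2A. Its envelope and epidermal enzyme genes had 0 edgeR calls among 10 (median 0.21) and 2 higher with DESeq2, ANXA2 and TGM2. Of those 10 genes, 4 (40.0%) were higher and 0 lower at an unadjusted p under 0.05, beside 10.5% and 10.1% of all tested genes, and 8 (80.0%) had both srsf5a-morpholino libraries above both controls, beside 26.1%. The lowest p in the groups with no edgeR call belonged to the scaffold gene MAGI1 (ENSDARG00000003169, log2 -0.30 ± 0.10), the beta-catenin gene CTNNB1 (-0.18 ± 0.11), the ETS factor gene ELF3 (0.63 ± 0.15) and a transglutaminase gene, TGM2 (ENSDARG00000074094, 0.53 ± 0.10). Their edgeR adjusted p-values were 0.156 for MAGI1, 0.412 for CTNNB1, 0.0784 for ELF3 and 0.0519 for TGM2. TP63, the master regulator of basal epidermis and named here as a marker, overlapped between groups, with 91.2 and 102 CPM in srsf5a-morpholino embryos and 90.7 and 93.3 CPM in control embryos.

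Marker genes of the embryo's cell types that could be matched by name were present and give the levels these results sit beside. Some markers sought matched no row. These were kdrl, pecam1 and egfl7 (endothelium), mpx and mpeg1.1 (neutrophil and macrophage), cdx1b and fabp1b.1 (gut), slc12a1, plp1a, hbbe1.1 and anxa1c. The myelinating glia marker mbpa had too few reads to be tested. Of 7 basal epidermis markers 6 lay above 0 and col17a1a fell. Their summed level was 848 to 862 CPM in srsf5a-morpholino embryos, against 910.2 to 913 CPM in control embryos, and without col17a1a it was 638 to 643 CPM against 588 to 592 CPM. The choice to leave out col17a1a followed a look at its values. The 6 kept all lay above 0, so the direction of the second sum was set by that choice. Of 5 periderm markers 4 lay above 0 and none passed, with a summed level of 373 to 385 CPM in srsf5a-morpholino embryos, against 314 to 334 CPM in control embryos. Most of this sum came from ANXA1 (log2 0.22), a name that paralogs can share. The basal epidermis markers, and the periderm markers other than agr1, are also in the list of other epithelial genes. Some other marker sums were above the controls while their genes were split. The pronephros sum was 429 to 488 CPM in srsf5a-morpholino embryos, against 395 to 396 CPM in control embryos, with 4 of 6 genes above 0. One of its SLC20A1 rows rose (log2 0.95, edgeR adjusted p = 0.0313), and the other SLC20A1 row held most of the sum (0.26). CDH17 and SLC12A3 lay above both controls without passing (0.53 and 0.90, edgeR adjusted p = 0.0589 and 0.097). Both PAX2 rows lay below both controls without passing (-0.55 and -0.73). The notochord sum was 147 to 149 CPM in srsf5a-morpholino embryos, against 124 to 129 CPM in control embryos, with 3 of 5 genes above 0, col8a1a at 0.38 and ENTPD5 and TBXT at -0.83 and -0.27. The gut sum was 73.1 to 92.5 CPM in srsf5a-morpholino embryos, against 63.3 to 72.9 CPM in control embryos, mostly from FABP2 (0.31), which overlapped between groups, and VIL1 was at -0.25. The neutrophil and macrophage sum was 75.1 to 88.1 CPM in srsf5a-morpholino embryos, against 57.0 to 61.0 CPM in control embryos, mostly from lyz (0.57). Of its 6 tested genes 3 lay above 0, and LCP1 was at -0.26. The 4 tested MFAP4 rows were split, with 2 below 0 (-0.14 and -0.58) and the others at 0.24 and 2.18. The MFAP4 row at 2.18 had at most 1.56 CPM in any library. It lay above both controls without passing (edgeR adjusted p = 0.0726). Another 2 MFAP4 rows had at most 3 counts in any library. Red cell markers summed to 370.3 to 394 CPM in srsf5a-morpholino embryos, against 500.1 to 553 CPM in control embryos. All 4 of these lay below 0 and 1, an SLC4A1 row, fell (-0.61, edgeR adjusted p = 0.0395). Ionocyte, endothelium and myelinating glia sums overlapped between the groups. Most of the ionocyte sum came from an ATP6V1A row that lay below both controls (log2 -0.17). Of the 7 ionocyte genes, 6 lay above 0 and none passed. Above both controls were slc12a10.2 (1.40, edgeR adjusted p = 0.0729), foxi3b (0.42, edgeR adjusted p = 0.144) and GCM2 (0.14), while the rest of the 6 overlapped. No matched marker was at 0 in all 4 libraries, and the part of cell composition in the keratin and claudin values was not tested.

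The authors' deposited table, made with DESeq2 according to the submitters' notes, lists 9 of the 52 genes for which it gives an adjusted p as higher and 0 as lower at 0.05, beside 3.14% higher and 2.99% lower (6.12% in all) of the genes with an adjusted p there. The 9 are krt18a.1, krt1-19d, krt92, krt18b, krt8, dsc2l, epcam, cldn3c and cldn7b, and they include both genes called with edgeR. The authors' deposited table gives log2 fold changes of 0.73 for krt18a.1 and 0.91 for krt1-19d, beside 0.77 and 1.11 with DESeq2 run here. The reason for this difference was not tested. DESeq2 run on the deposited counts called the same 9 genes of 55, beside 2.84% higher and 2.65% lower (5.49% in all) of the genes to which it gave an adjusted p.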

How the data were processed

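The submitters' processing notes name the Zv9 build and Picard, TopHat, HTSeq and DESeq2. Their versions, the annotation and the strand setting were not stated in those sources. Whether reads of overlapping and antisense genes were told apart is therefore not known. The authors deposited whole-number read counts per Ensembl gene for each library, closing with summary totals that hold 42.9% to 47.0% of listed reads and entered neither library sizes nor tests. The authors' deposited comparison table holds a signal column (mean normalized count), log2 fold changes with their errors, a score (Wald statistic) and p-values, used only as the authors' own result.

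The test was that of edgeR 4.0.16 under R 4.3.3 (TMM factors, filterByExpr with minimum count 10 and total 15, quasi-likelihood test on the morpholino group, Benjamini-Hochberg adjustment over the 19917 genes tested). CPM use TMM-scaled totals and are not per length. Fold changes are log2, srsf5a over control morpholino, and a standard error is the fold change divided by the square root of F. DESeq2 1.42.0, other filters and scalings, a replicate block, thinning and leaving out each library were alternatives, and the fit was tested on simulated counts. The chi-square per degree of freedom between replicates was 13.5 in srsf5a-morpholino and 8.72 in control libraries, above sampling noise, so all libraries were kept.

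Symbols came from a supplied table naming 20603 identifiers. Named genes are those called, the 4 largest changes in each direction (at least 5 CPM) and the 4 with the highest CPM among keratin-named and claudin-named genes, every tested desmosome, plakin and adhesion gene, and, in the other epithelial list, calls and the lowest p per group. Genes, lists and tests were chosen with earlier results of these data known. The groups share replicate numbers 1 and 2, which were not treated as pairing. Floors of 3 counts cover counting error only.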

Additional observations from a re-analysis of the deposited data

How the results depend on the processing

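Counts of calls depended on the test and the libraries. DESeq2 called 494 genes higher and 462 lower over all genes, 9 of the epithelial genes described higher (5 keratin, 2 claudin, 1 desmosome and 1 adhesion), and 4 higher and 2 lower of the other epithelial genes. Same-numbered libraries deviated together (correlation across genes 0.367 over all tested and 0.519 over the 60), which with 2 pairs does not establish pairing. A fit with the replicate number as a block called 865 higher and 717 lower over all genes, 8 of the genes described higher and 1 lower (4 keratin genes higher and 1 lower, krt1-19e at log2 -0.48, 2 claudin, 1 desmosome and 1 adhesion higher), and 7 higher and 2 lower of the other epithelial genes. All 8 were among the 9 that DESeq2 called. Of the 56 other epithelial genes, 3 were higher and 1 lower with a filter of 1 CPM in 2 libraries, beside 313 and 220 of all 18192 tested. In libraries thinned to the shallowest total, 2 of the 56 were higher and 1 lower, beside 264 and 180 of all 19077 tested.

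Leaving out each library in turn gave 31 to 702 genes higher and 2 to 708 lower over all genes. Of the genes described, 0 to 8 were then higher and 0 to 1 lower: keratin genes 0 to 5 higher and 0 to 1 lower, claudin genes 0 to 2 higher, desmosome genes 0 to 1 higher, epcam 0 to 1 higher. Other epithelial genes ranged over 0 to 7 higher and 0 to 2 lower. The count of keratin genes called higher was 2 of 21 with DESeq2 size factors, 2 of 22 with no filter on low counts and 2 of 20 in thinned libraries. Over all genes these settings called 241 of 19917, 233 of 25062 and 264 of 19077 higher. With the filter of 1 CPM in 2 libraries it was 3 of 20, where krt92 (log2 0.81) was added, beside 313 of 18192 over all genes. The cause of these shifts was not tested.

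Log2 fold changes that changed sign as libraries were left out ranged over -0.15 to 0.083 for krt4, -0.030 to 0.36 for cyt1, -0.12 to 0.22 for cyt1l, -0.37 to 0.031 for CLDN11 (ENSDARG00000030723), -0.49 to 0.14 for cldn15la, -0.084 to 0.21 and -0.17 to 0.0051 for the DSP rows, -0.59 to 0.071 for evpla, -0.32 to 0.59 for PKP1, -0.24 to 0.14 for pkp1a, -0.026 to 0.38 for PKP3 and -0.15 to 0.15 for pkp3a, which was also 0.00025 in thinned libraries. None of these 12 genes passed the test in any setting tried. Changes of sign were looked for only in the genes named by the stated rule, so other genes may also change sign. With 2 libraries per group and a shallowest total of 15139525 gene counts, genes of few counts are the least certain.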
